A study of Homo sapiens with 9 samples.

Results

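The 3 libraries numbered replicate 3 were compared with the 3 numbered replicate 2 in RNA-seq of SH-SY5Y cells, a human neuroblastoma line. They were chosen by the replicate number in the sample titles and make up 6 of the 9 libraries of the series. Each set holds 1 library each from cells given vehicle (0 µM), 10 µM or 20 µM of the mould toxin citrinin for 72 h in medium with serum. The same 3 doses therefore stand on both sides, and dose was kept in the model. The labels do not say whether a replicate number marks a culture, a passage or a day, nor whether replicates were separate cultures. The p-values therefore reflect the scatter among these libraries alone, and that scatter may be technical.

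SH-SY5Y cells carry the transcription factors and secretory genes of immature sympathetic neurons. Neuroblastoma cells are also known in a mesenchymal state, in which genes for collagens, fibronectin and contractile fibres are active and sympathetic genes are lower, and the line descends from a culture that held both forms. Collagens and matrix glycoproteins form the scaffold outside the cell, integrins bind it from the membrane, and TGF-beta and the YAP and TEAD proteins are well-known inducers of matrix and contractile genes.

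The 6 libraries held 15678443 to 19604367 reads in genes. Levels are given as CPM, the count scaled to the size of its library, and 3 reads correspond to 0.153 to 0.191 CPM. Mitochondrially encoded genes took 10.3% to 11.8% of these reads, and the share of reads outside genes was 7.21% to 7.98%. All 10 markers of sympathetic neuroblastoma were present in both sets, with a summed level of 2795 to 3234 CPM in replicate 2 and 2357 to 2829 CPM in replicate 3. The 4 markers named for the difference, COL1A1, COL1A2, THBS1 and FN1, summed to 2575 to 3023 CPM in replicate 2 and 4242 to 4554 CPM in replicate 3. Markers of other cells were low in both sets. The 6 glial and Schwann cell markers summed to 6.92 to 7.98 CPM in replicate 2 and 6.47 to 8.26 CPM in replicate 3, with CDH19 at 0 reads. The 6 epithelial markers summed to 8.72 to 11.2 and 10.4 to 12.7 CPM, mostly CLDN4, with KRT5 and ESRP1 at 0. The 8 blood and endothelial markers summed to 2.14 to 2.23 and 2.29 to 2.60 CPM, with CD3E and HBB at 0, and the 4 melanocyte markers to 7.61 to 8.66 and 5.10 to 6.89 CPM, with TYR at 0. In bulk samples, fewer cells of a type and less RNA per cell cannot be told apart.

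Of 17850 genes tested with edgeR's quasi-likelihood test, 2633 passed a Benjamini-Hochberg adjusted p of 0.05, which is 14.8% of all genes tested. They divided almost evenly, with 1299 higher (7.28%) and 1334 lower (7.47%) in replicate 3. Most differences were small. The median size among genes that passed was 0.33 on the log2 scale, and 155 genes were at least 2-fold higher and 57 at least 2-fold lower. Of the 2633, 2610 went the same way at all 3 doses, against 45.9% of all genes tested. In 2295 the 3 libraries of one set did not overlap those of the other, against 27.3% of all genes tested. Both counts follow largely from the selection, since the genes were called in these same libraries. DESeq2, run on the same counts and design, called 1144 genes, and all 2633 had the same direction there.

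Matrix genes led the genes higher in replicate 3, and several of them were almost silent in replicate 2. Genes named for the largest change, in either direction, were picked to have no overlap and 1 direction at all doses. For them neither is a further result. COL1A1 (chromosome 17, 50183289 to 50201632, minus strand, GRCh38), a chain of type I collagen, stood at 66.4, 70.5 and 63.5 CPM in replicate 2 at 0, 10 and 20 µM. In replicate 3 it stood at 274, 301 and 284 CPM. It rose 4.29-fold (log2 fold change 2.10 ± 0.04 SE, adjusted p = 6.43e-22), and the sets did not overlap. COL1A2 (chromosome 7, 94394561 to 94431232, plus strand), which encodes the partner chain, went from 2.09, 2.27 and 2.0 CPM to 16.3, 17.0 and 15.6 CPM. That is 7.68-fold (2.94 ± 0.14, adjusted p = 5.07e-14), again with no overlap. Both chains had their highest level in replicate 1, with means of 428 and 20.5 CPM.

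THBS1 (chromosome 15, 39581079 to 39599466, plus strand), the matrix glycoprotein thrombospondin that activates latent TGF-beta, had 41.0, 44.2 and 49.3 CPM in replicate 2 and 153, 155 and 167 CPM in replicate 3. It rose 3.54-fold (1.82 ± 0.05, adjusted p = 9.50e-20). FN1 (chromosome 2, 215360440 to 215436172, minus strand), fibronectin, was the most abundant of the 4 in reads and the least changed. Its level went from 2589, 2458 and 2909 CPM to 3857, 3769.6 and 4088 CPM, a rise of 1.48-fold (0.56 ± 0.04, adjusted p = 1.74e-10) without overlap.

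POSTN (chromosome 13, 37562583 to 37598844, minus strand), periostin, a matrix protein of fibroblasts, showed the widest difference among the genes picked by rule. Replicate 2 held 0, 0 and 4 POSTN reads, and replicate 3 held 658, 787 and 619. The ratio of the summed reads after scaling for depth was 481, with a 95% interval of 187 to 1766 that covers counting error only, so its size rests on those 4 reads. Replicate 1 held more than either set (1073, 1125 and 916 reads). FBLN5, a fibulin that organises elastic fibres, went from 1.53, 1.49 and 2.0 CPM to 16.3, 13.7 and 14.4 CPM (8.81-fold, 3.14 ± 0.16, adjusted p = 1.42e-13). BGN, the proteoglycan biglycan, went from 39.1, 36.3 and 36.3 CPM to 146, 129.9 and 139 CPM (3.73-fold, 1.90 ± 0.05, adjusted p = 9.50e-20). Neither gene had overlapping sets, which is a condition of the rule for genes with the largest change.

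CCN2, the connective tissue growth factor and a standard target of YAP and TEAD, had 6.23, 6.67 and 8.81 CPM in replicate 2. In replicate 3 it had 43.3, 45.7 and 33.8 CPM, a rise of 5.61-fold (2.49 ± 0.14, adjusted p = 4.16e-07). INHBA, the subunit of the TGF-beta family ligand activin A, went from 24.9, 20.1 and 14.01 CPM to 102, 91.8 and 77.6 CPM (4.64-fold, 2.21 ± 0.07, adjusted p = 2.62e-18). In both genes the lowest library of replicate 3 lay above the highest of replicate 2, which is a condition of the rule that picked them. PLOD2, which hydroxylates lysines of collagen for cross-linking, rose 5.66-fold (2.50 ± 0.14), and the amino acid transporter SLC38A4 rose 21.7-fold from below 1 CPM (4.44 ± 0.19). LRRC15, a membrane protein known from TGF-beta-treated fibroblasts, rose 3.38-fold (1.76 ± 0.16). CSF3, the cytokine G-CSF, rose 3.80-fold (1.93 ± 0.15), with a range of 2.43 to 3.72 CPM in replicate 2 and of 9.73 to 14.6 CPM in replicate 3. Its level in replicate 1 was below both sets, at 0.350 to 0.662 CPM.

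**Figure D1:**
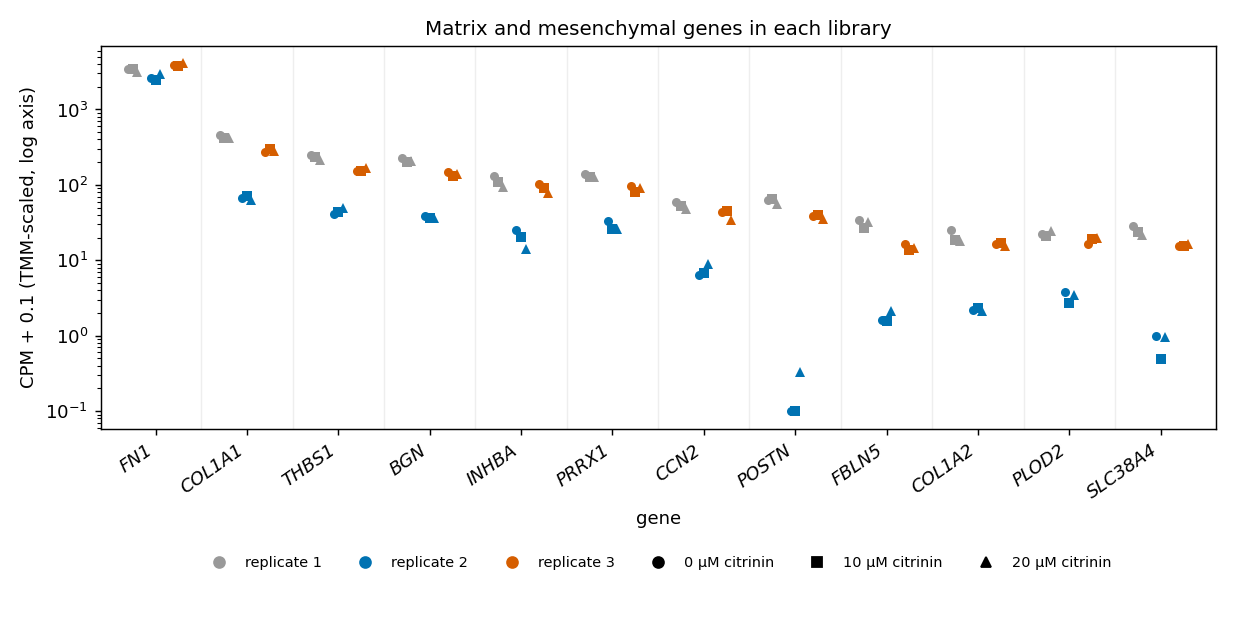
Levels of 12 genes in every library (vertical log axis, CPM plus 0.1), coloured by replicate set and shaped by citrinin dose. In each gene the 3 replicate 3 points lie above the 3 replicate 2 points, from FN1 at 1.48-fold to POSTN, with 0, 0 and 4 reads in replicate 2. Genes named for the largest change were picked to have no overlap. Replicate 1 is drawn for reference and lies above replicate 3 within each dose in every gene shown except FN1.

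The stretch before the transcript start is shown for 3 of these genes, because they moved together and hold motifs of factors known to act on matrix genes. Each run is the 250 bases before the RefSeq start (GRCh38.p14), written 5′ to 3′ on the gene's strand. Capitals mark matches, on either strand, to GGAATG (TEAD), TGANTCA (AP-1) and TATAAA (the TATA box), and no 2 matches overlap. The CArG box of SRF was also searched. CCN2 is chr6:131951373-131951622 (minus strand), POSTN is chr13:37598769-37599018 (minus strand) and THBS1 is chr15:39580829-39581078 (plus strand).
CCN2: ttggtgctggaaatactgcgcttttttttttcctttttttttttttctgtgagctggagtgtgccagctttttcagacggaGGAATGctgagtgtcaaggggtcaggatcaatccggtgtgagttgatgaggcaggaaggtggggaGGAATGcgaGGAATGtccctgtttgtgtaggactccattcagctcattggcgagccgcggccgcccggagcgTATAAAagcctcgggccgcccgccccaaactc
POSTN: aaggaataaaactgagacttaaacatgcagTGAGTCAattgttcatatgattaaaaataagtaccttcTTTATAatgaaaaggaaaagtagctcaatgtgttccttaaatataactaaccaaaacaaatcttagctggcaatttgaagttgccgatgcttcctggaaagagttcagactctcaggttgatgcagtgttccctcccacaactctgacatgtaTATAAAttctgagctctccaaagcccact
THBS1: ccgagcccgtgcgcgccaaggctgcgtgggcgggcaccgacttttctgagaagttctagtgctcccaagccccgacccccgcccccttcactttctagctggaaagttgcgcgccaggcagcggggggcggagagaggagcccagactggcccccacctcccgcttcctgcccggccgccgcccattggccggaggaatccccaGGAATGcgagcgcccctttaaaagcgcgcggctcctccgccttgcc

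The CCN2 stretch held GGAATG 3 times, at positions -169, -104 and -95 from the start, and a TATA box. THBS1 held it once, at -46, and POSTN held an AP-1 match at -220 and TATA boxes at -182 and -29. The same stretches of FN1 and BGN held no match to the 4 motifs, and INHBA held a TATA box. GGAATG was present in 11.9% of all 35116 stretches of this length, in 10.1% of the 17611 of tested genes, in 11.5% of the 1648 of genes higher and in 10.2% of the 1601 of genes lower in replicate 3, where a gene can have several. For AP-1 the shares were 6.57% of all stretches, 4.69% of those of tested genes, 7.77% for genes higher and 4.12% for genes lower in replicate 3. For the CArG box they were 1.16%, 1.06%, 1.64% and 1.19% in the same order, and for the TATA box 10.7%, 6.27%, 9.04% and 6.18%. A match describes the letters only and says nothing about binding in these cells.

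Each matrix list, with the leading genes counted in, held more genes higher than lower in replicate 3. Over all tested genes 7.28% were higher and 7.47% lower, with a median log2 fold change of -0.003. Of 21 collagens tested, 15 were higher and none lower, with a median of 0.35 (0.36, 0.38 and 0.43 at 0, 10 and 20 µM). COL6A3 (2.14-fold, 1.10 ± 0.09) and COL5A1 (1.51-fold, 0.60 ± 0.04) were among them. Of 17 collagen-processing enzymes, 9 were higher and none lower (median 0.16), among them the cross-linking oxidases LOX (0.63 ± 0.06) and LOXL2 (0.48 ± 0.04) and the procollagen protease BMP1 (0.37 ± 0.05). Of 35 matrix glycoproteins and proteoglycans, 23 were higher (median 0.23). The 4 lower ones were the small leucine-rich proteoglycans DCN (-0.62 ± 0.14) and LUM (-0.40 ± 0.09), the laminin chain LAMA4 (-0.29 ± 0.08) and the matrilin MATN2 (-0.23 ± 0.08).

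Among receptors and remodelling enzymes, too, more genes were higher than lower, with some exceptions. Of 16 integrins, 9 were higher (median 0.30), with ITGB8 (0.63 ± 0.06), which binds latent TGF-beta, ITGA2 (0.51 ± 0.05) and ITGA3 (0.42 ± 0.04) at the smallest p. ITGA9 was the one that was lower (-0.70 ± 0.08). Of 24 matrix proteases and inhibitors, 10 were higher and 3 lower (median 0.07). The higher ones included proteases and inhibitors alike. Of the proteases, the collagenase MMP1 (2.67-fold, 1.42 ± 0.33), MMP11 (0.39 ± 0.08), MMP9 (0.38 ± 0.12), ADAM19 (0.26 ± 0.04) and MMP2 (0.14 ± 0.04) were higher. Of the inhibitors, SERPINE2 was higher at 2.76-fold (1.46 ± 0.12), TIMP1 at 1.70-fold (0.76 ± 0.05) and TIMP3 at 1.40-fold (0.48 ± 0.05). The proteases MMP16, MMP24 and ADAM12 were lower (-0.17, -0.61 and -0.40).

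Genes of TGF-beta, BMP and YAP signalling, targets included, were higher in part. Of 29 genes of the TGF-beta and BMP pathway, 13 were higher and 2 lower (median 0.10). The ligands TGFB1 (0.34 ± 0.05) and TGFB2 (0.34 ± 0.08), the receptor TGFBR2 (0.57 ± 0.07), the target TGFBI (0.56 ± 0.09), the BMP target ID3 (0.49 ± 0.04) and the BMP antagonist GREM1 (0.36 ± 0.04) were higher. GDF15, a stress-induced member of the ligand family, and the decoy receptor BAMBI were lower (-0.44 ± 0.05 and -0.40). SMAD2, SMAD3 and SMAD4, which carry the signal to the nucleus, did not pass. Of 21 YAP and TEAD targets, 14 were higher (median 0.41), among them NT5E (0.78 ± 0.04), CRIM1 (0.65 ± 0.05), ANKRD1 (0.55 ± 0.06) and CCN1 (0.45 ± 0.04). DLC1 was the one that was lower (-0.43). YAP1 itself was also higher (0.45 ± 0.06).

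The differences in genes of the contractile skeleton were small and of similar size. Of 25 actin and SRF targets, 17 were higher and none lower (median 0.27, with the middle 50% of genes between 0.16 and 0.32). The non-muscle myosin MYH9 went from 836, 887 and 965 CPM to 1194, 1226 and 1341 CPM (1.40-fold, 0.49 ± 0.04, adjusted p = 9.37e-10). Caldesmon CALD1 (0.49 ± 0.04), tropomyosin TPM1 (0.37 ± 0.04) and the actin crosslinker ACTN1 (0.36 ± 0.04) moved with it. The smooth muscle gene TAGLN did not pass (0.07 ± 0.05).

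Of 31 genes of the mesenchymal state, 21 were higher and 1 lower (median 0.33). PRRX1, a transcription factor that marks mesenchymal neuroblastoma cells, had 33.5, 25.9 and 26.2 CPM in replicate 2 and 95.8, 81.1 and 90.3 CPM in replicate 3. It rose 3.13-fold (1.65 ± 0.06, adjusted p = 1.15e-16), with no overlap. S100A10 rose 6.81-fold from about 1 CPM (2.77 ± 0.25), the hyaluronan receptor CD44 rose 1.47-fold (0.56 ± 0.04) and the annexin ANXA2 1.40-fold (0.49 ± 0.04). The exception was TWIST1 (-0.16 ± 0.04), whose relative TWIST2 was higher (0.78 ± 0.13). SNAI1, SNAI2, ZEB1 and ZEB2, the other common regulators of this state, did not pass.

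**Figure D2:**
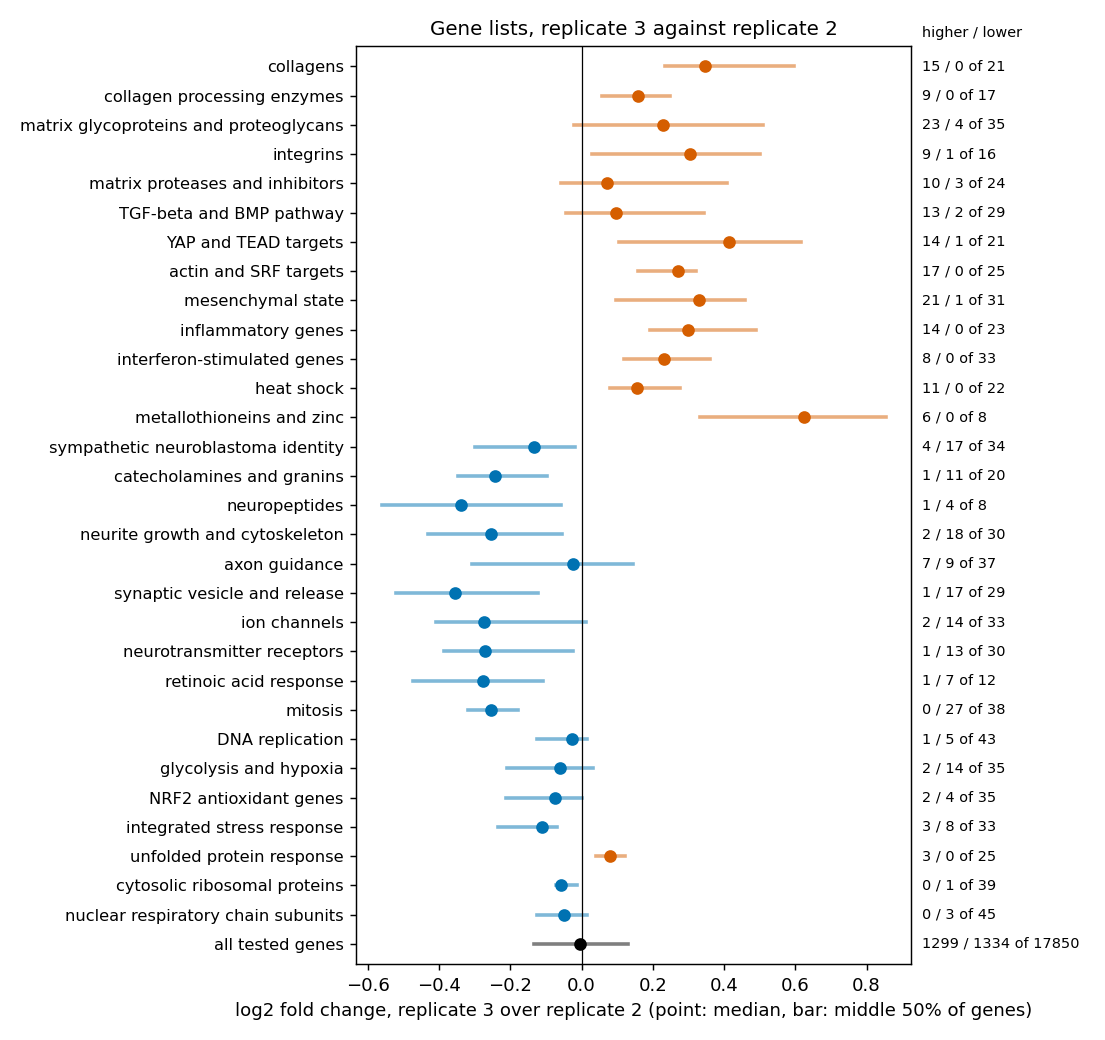
Median log2 fold change of replicate 3 over replicate 2 (points, horizontal axis) and the range of the middle 50% of genes (bars) for 30 gene lists and for all tested genes, with the number higher and lower of those tested at the right. Matrix, contractile, mesenchymal, inflammatory and metallothionein lists lie to the right of 0, most neuronal lists and mitosis lie to the left, and ribosomal and respiratory chain lists lie near 0, where all tested genes have their median of -0.003.

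Most neuronal lists held more genes lower than higher in replicate 3, although many of their members did not pass. RET (chromosome 10, 43077027 to 43130351, plus strand), the receptor for GDNF-family ligands, had 531, 465 and 325 CPM in replicate 2 at 0, 10 and 20 µM and 238, 231 and 149 CPM in replicate 3. It fell 2.14-fold (-1.10 ± 0.04, adjusted p = 2.63e-16). The sets did not overlap, which is a condition of the rule that picked RET, although both were lowest at 20 µM. CRABP2, which carries retinoic acid to its receptor, went from 123, 116 and 86.8 CPM to 49.0, 46.7 and 35.8 CPM (2.47-fold lower, -1.30 ± 0.05, adjusted p = 4.77e-16). NTRK2, the receptor for BDNF, had 10.8, 9.0 and 5.20 CPM against 3.23, 2.39 and 1.82 CPM (3.33-fold lower, -1.74 ± 0.17, adjusted p = 3.31e-08), the largest fall among genes picked by rule.

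The other genes with the largest falls were a mixed group at low levels. The extracellular matrix protein of neurons TNR (-1.36 ± 0.17), the ion channel TRPA1 (-1.30 ± 0.12), TSPEAR (-1.30 ± 0.10) and the proteoglycan SPOCK2 (-1.21 ± 0.12) were more than 2-fold lower. So were the sulfotransferase CHST8 (-1.14 ± 0.10), TMEM229A (-1.11 ± 0.13), CLMN (-1.05 ± 0.11) and WFDC2 (-1.01 ± 0.11). HOXD4, a homeobox gene of the HOXD cluster, went from 12.6, 9.97 and 7.72 CPM to 5.17, 4.79 and 4.61 CPM (-1.04 ± 0.15, adjusted p = 8.12e-06). The rest of the cluster was then looked up after these values were seen. All 5 tested HOXD genes were lower, with HOXD8 at -0.93 ± 0.08, HOXD9 at -0.85 ± 0.08, HOXD10 at -1.02 ± 0.27 and HOXD3 at -0.51 ± 0.17, while of 5 tested HOXC genes only HOXC4 passed (-0.22).

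Of 34 genes of sympathetic neuroblastoma identity, 17 were lower and 4 higher (median -0.13). Among the core transcription factors, GATA2 (-0.30 ± 0.04) and TBX3 (-0.39 ± 0.04) were lower by small amounts, and HAND2 (-0.10 ± 0.04, adjusted p = 0.125) and ISL1 did not pass. Among the higher ones were MEIS1 (0.33 ± 0.06), DLK1 (0.72 ± 0.18) and the neurotrophin receptor NTRK3 (0.53 ± 0.14). Of 20 genes for catecholamines and granins, 11 were lower and 1, VGF, higher (median -0.24). The vesicle transporter SLC18A1 (-0.75 ± 0.09), the secretogranins SCG3 (-0.52 ± 0.05) and SCG2 (-0.38 ± 0.04), and DDC (-0.51 ± 0.06), which makes dopamine from its precursor, were lower. DBH, which makes noradrenaline, was at 85.2 ± 6.17 CPM in replicate 2 and 84.1 ± 10.3 CPM in replicate 3 (SD, n = 3 each; -0.02 ± 0.05, edgeR adjusted p = 0.861).

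Neuropeptides went both ways. Of 8 tested, 4 were lower (VIP -0.48 ± 0.05, NMU -0.86 ± 0.17, NPPB -0.71 ± 0.11 and CALCB -0.51) and 1 was higher. That one was NPY, a peptide of sympathetic neurons, with 148, 177 and 180.0 CPM in replicate 2 and 262, 253 and 263 CPM in replicate 3 (1.55-fold, 0.63 ± 0.05, adjusted p = 8.20e-10).

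Most of the neurite and synapse genes that passed were lower. Of 30 genes of neurite growth and cytoskeleton, 18 were lower and 2 (BASP1 and MAP1A) higher, with a median of -0.25. DCX, the microtubule protein of migrating neurons, went from 109.5, 106 and 87.6 CPM to 66.6, 63.6 and 49.1 CPM (1.69-fold lower, -0.76 ± 0.05, adjusted p = 2.98e-11). STMN2, which regulates microtubules in growth cones, fell from 843, 812 and 649 CPM to 628, 603 and 484 CPM (-0.42 ± 0.04, adjusted p = 8.64e-09). In both genes the 3 libraries of replicate 3 lay below those of replicate 2. Of 29 genes of synaptic vesicles and release, 17 were lower and 1 (RAB3B) higher, with a median of -0.35, including the vesicle proteins SV2C (-0.57 ± 0.05) and SYP (-0.52 ± 0.06), the calcium sensor SYT7 (-0.52 ± 0.06) and the release regulator CPLX2 (-0.52 ± 0.06).

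Of 33 ion channel genes, 14 were lower and 2 (KCNJ3 and KCNMA1) higher (median -0.27), with the calcium channel subunit CACNA2D2 (-0.56 ± 0.05) and the potassium channels KCNC1 (-0.74 ± 0.09) and KCNH2 (-0.30 ± 0.04) at the smallest p. Of 30 neurotransmitter receptors, 13 were lower and 1 (GABBR1) higher (median -0.27). The mu opioid receptor OPRM1 fell 1.66-fold (-0.73 ± 0.06) and the nicotinic subunit CHRNA3 1.22-fold (-0.28 ± 0.04). Axon guidance genes divided, with 7 of 37 higher and 9 lower (median -0.02). NRP1, a co-receptor for semaphorins and VEGF, was higher (0.58 ± 0.05), and the netrin receptors UNC5A (-0.61 ± 0.07) and UNC5B (-0.36 ± 0.04) were lower. Of 12 genes of the retinoic acid response, 7 were lower, CRABP2 and RET among them, and TGM2 was higher (0.73 ± 0.04), with a list median of -0.28.

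**Figure D3:**
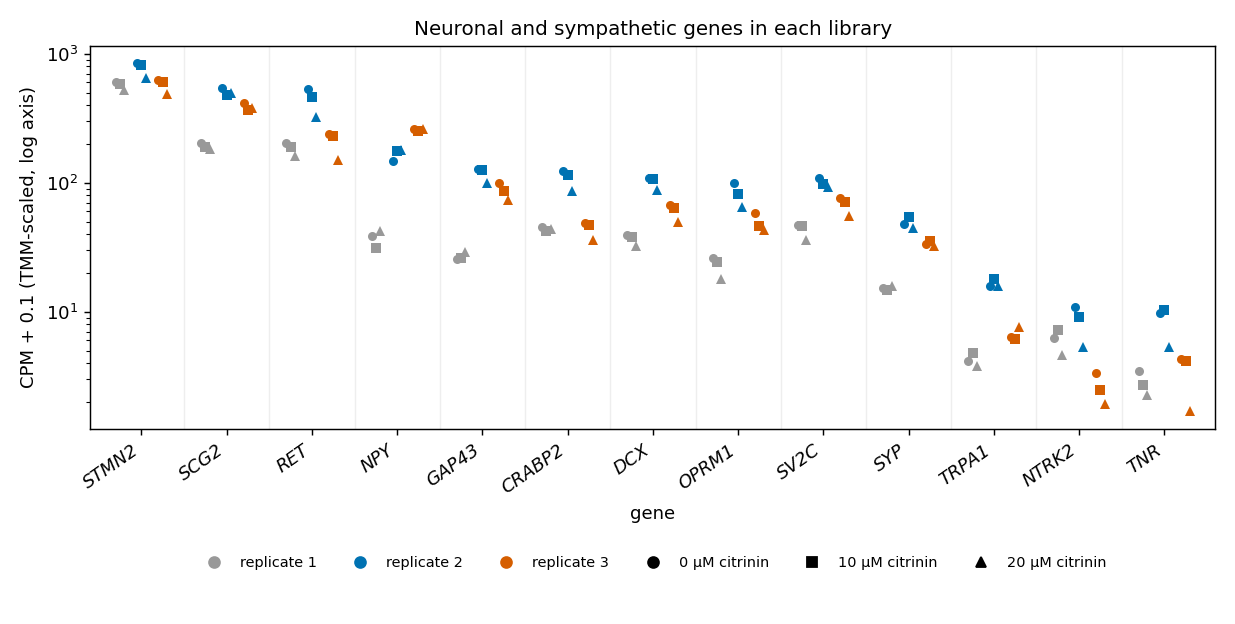
Levels of 13 neuronal and sympathetic genes in every library (vertical log axis, CPM plus 0.1), coloured by replicate set and shaped by citrinin dose. Replicate 3 lies below replicate 2 within each dose for every gene shown except NPY, where it lies above at 262, 253 and 263 against 148, 177 and 180.0 CPM.

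The cell cycle lists gave unlike counts. Of 38 mitosis genes, 27 were lower in replicate 3 and none higher, with a median of -0.25 (-0.32, -0.19 and -0.21 at 0, 10 and 20 µM). The spindle protein ASPM went from 188, 165 and 172 CPM to 136, 133 and 126 CPM (-0.41 ± 0.04, adjusted p = 1.94e-07). The mitotic cyclin CCNB1 went from 116, 113 and 111 CPM to 87.1, 87.8 and 90.0 CPM (-0.36 ± 0.05, adjusted p = 3.13e-06), and the proliferation marker MKI67 was also lower (-0.29 ± 0.04). Of 43 DNA replication genes, 5 were lower (RPA3, PRIM1, TYMS, E2F1 and E2F2, between -0.39 and -0.19) and 1 higher, so the share that passed was near that of all genes. Their median was -0.03 (-0.11, -0.10 and 0.03 at 0, 10 and 20 µM). The one that was higher, the ribonucleotide reductase subunit RRM2, rose from 158, 159 and 144 CPM to 195, 212 and 223 CPM (1.37-fold, 0.45 ± 0.05, adjusted p = 6.50e-07). Whether the 2 lists differ from each other was not tested.

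**Figure D4:**
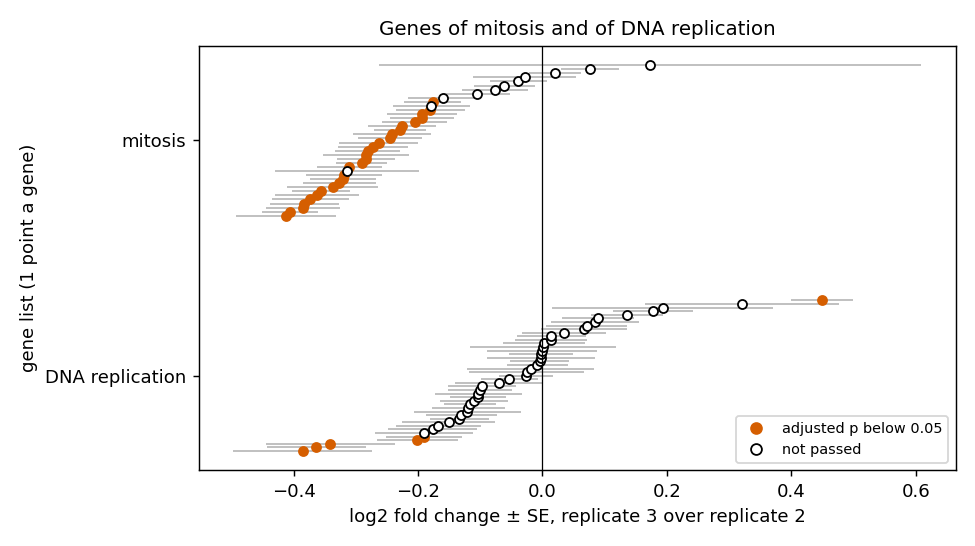
Log2 fold change of replicate 3 over replicate 2 (horizontal axis, bars are 1 SE) for each tested gene of mitosis and of DNA replication. Filled points passed an adjusted p of 0.05. Most mitosis genes lie left of 0 and 27 of 38 passed, while most DNA replication genes did not pass and RRM2 is the filled point to the right.

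Stress and immune genes differed too. Of 23 inflammatory genes, 14 were higher and none lower (median 0.30), including the cytokine IL1B (1.49-fold, 0.58 ± 0.04), the chemokine CXCL8 (1.44-fold, 0.52 ± 0.04), the adhesion receptor VCAM1 (1.70-fold, 0.77 ± 0.06) and NFKB1 (1.32-fold, 0.40 ± 0.05). Of 33 interferon-stimulated genes 8 were higher (median 0.23), led by HLA-B (1.61-fold, 0.69 ± 0.08), while the classical targets IFIT1, MX1 and OAS1 did not pass. Of 22 heat shock genes, 11 were higher and none lower (median 0.16). HSPA8, the constitutive chaperone, went from 880.4, 964 and 998 CPM to 1288, 1290.5 and 1420.0 CPM (1.41-fold, 0.50 ± 0.04). Of 8 metallothionein and zinc genes, 6 were higher (median 0.62). MT2A, a metal-binding scavenger, went from 98.4, 97.8 and 109 CPM to 168, 168 and 192 CPM (1.73-fold, 0.79 ± 0.04, adjusted p = 5.18e-13), without overlap. Of 35 genes of glycolysis and hypoxia, 14 were lower and 2 higher (median -0.06). The glucose transporter SLC2A3 (2.33 ± 0.67, from 6 reads over replicate 2) and the peptide hormone ADM (0.43 ± 0.10) were the 2 that were higher. Among the lower genes were the mitochondrial kinase PDK1 (-0.53 ± 0.07) and hexokinase HK2 (-0.37 ± 0.05).

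Housekeeping lists showed little. Of 39 cytosolic ribosomal proteins only RPL22 passed (-0.14 ± 0.05), of 45 nuclear subunits of the respiratory chain 3 were lower (NDUFA5, NDUFV2 and CYC1), and of 13 mitochondrially encoded genes only MT-CYB passed (0.13 ± 0.04). Of 25 unfolded protein response genes, 3 were higher (HSPA5, PDIA4 and EDEM1, between 0.14 and 0.23) and none lower.

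A group of genes near silence in replicate 2 was picked after its values were seen. It holds 31 genes that passed, were higher in replicate 3 and had at most 10 reads over the 3 replicate 2 libraries. Of these, 28 had over 10 reads in replicate 1, and the share over all tested genes was not counted. The opposite case, at most 10 reads over replicate 3, held 2 genes without a symbol (ENSG00000287486 and ENSG00000286443). EFEMP1, a fibulin-like matrix protein, had 0 reads in each replicate 2 library and 71, 109 and 82 in replicate 3. That is at least 81.4-fold higher, against a floor of 3 reads over the set. COLEC12, a scavenger receptor of the collectin family, had 0 reads against 35, 46 and 25 (at least 32.9-fold higher). SUCNR1, the receptor for succinate, had 5, 0 and 3 reads against 128, 167 and 173, a ratio of 54.5 with a 95% interval of 27.4 to 127 for counting error only. HSPA6, a strictly inducible heat shock protein, ran differently, with 0, 2 and 0 reads in replicate 2 and 53, 35 and 14 in replicate 3, but 4, 0 and 2 in replicate 1. Its ratio was 47.5 (95% interval 12.8 to 398).

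The replicate 1 libraries took no part in the contrast and were set beside it. Of the 47 genes that passed with a log2 fold change of at least 2, replicate 1 lay above the midpoint of the other sets in 40, and of the 155 at 1 or more in 96. Over all 17850 tested genes it lay above the midpoint in 8784. Of the 57 genes at -1 or less, it lay below the midpoint in 48, but of the 3 at -2 or less in only 1. Over all 1299 genes higher in replicate 3 the mean of replicate 1 was above both sets in 370 (28.5%), between them in 349 (26.9%) and below both in 580 (44.6%). For the 1334 lower genes these counts were 263 (19.7%), 418 (31.3%) and 653 (49.0%), and over all tested genes the shares were 40.1%, 18.8% and 41.0%. Replicate 3 therefore stood between the other sets for COL1A1, POSTN and FBLN5, and outside them for IL1B (27.2 CPM in replicate 1, 105 in replicate 2 and 156 in replicate 3) and NT5E (91.3, 195 and 331 CPM).

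Genes that passed were longer and more abundant than genes in general. The median exonic length was 4411 bases over all tested genes, 5984 in those higher and 5402 in those lower, and the median level was 17.3, 42.8 and 39.7 CPM. Median GC content was 48.0%, 47.5% and 49.3%. Of protein-coding genes 17.9% passed, against 7.20% of long intergenic and 3.96% of antisense RNAs. Length and gene type were not compared at equal level, so they cannot be told apart from the number of reads a gene had. Per chromosome, the median log2 fold change of protein-coding genes stayed between -0.05 (chromosome 19) and 0.03 (chromosome 21).

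The response to citrinin was compared between the sets as the change per 20 µM. No gene passed the test of a different slope with edgeR (0%; 529 had an unadjusted p below 0.05, and the smallest adjusted p was 0.111). DESeq2 and limma-voom also called 0, with 34 and 468 at an unadjusted p below 0.05. This count moved with single libraries. It became 333 without vehicle replicate 2, 218 without 20 µM replicate 2, 8 without 10 µM replicate 2 and 1 without 10 µM replicate 3, and those fits have 1 residual degree of freedom. In them the set that lost a library is fitted exactly, so the scatter comes from the other set alone. NQO1, a quinone reductase driven by the antioxidant factor NRF2, went from 96.6 to 158 and 200.4 CPM over the 3 doses in replicate 2 and from 88.0 to 117 and 163 CPM in replicate 3. Its slopes were 1.04 ± 0.09 and 0.90 ± 0.09 on the log2 scale (difference -0.14 ± 0.13).

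GCLM, for glutathione synthesis, had slopes of 1.15 ± 0.10 and 0.78 ± 0.10 (difference -0.37 ± 0.14), and OSGIN1 of 1.29 ± 0.20 and 1.23 ± 0.20 (-0.06 ± 0.29). The cystine importer SLC7A11 had 2.09 ± 0.23 and 1.57 ± 0.24 (-0.51 ± 0.34), and heme oxygenase HMOX1 1.54 ± 0.24 and 0.87 ± 0.26 (-0.67 ± 0.35). The difference of SLC7A11 became -1.52 without vehicle replicate 2, where it passed (adjusted p = 0.00469), and 0.71 without 20 µM replicate 2. That of HMOX1 became -1.54 and 0.33. Of 35 NRF2 antioxidant genes, 34 had a positive slope in replicate 2, 33 in replicate 3 and 32 in both, with medians of 0.57 and 0.40. Over all tested genes the median slope was -0.001 in replicate 2 and 0.0007 in replicate 3, and the share with a positive slope was not counted. The 3 protein-coding genes with the smallest p were RHNO1 (difference 0.62 ± 0.18), the transporter SLCO2B1 (-0.73 ± 0.21) and FSTL3 (-0.43 ± 0.13), none of which passed. RHNO1 passed without vehicle replicate 2, and FSTL3 without 10 µM replicate 2 (-0.44) or 20 µM replicate 2 (-0.65).

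**Figure D5:**
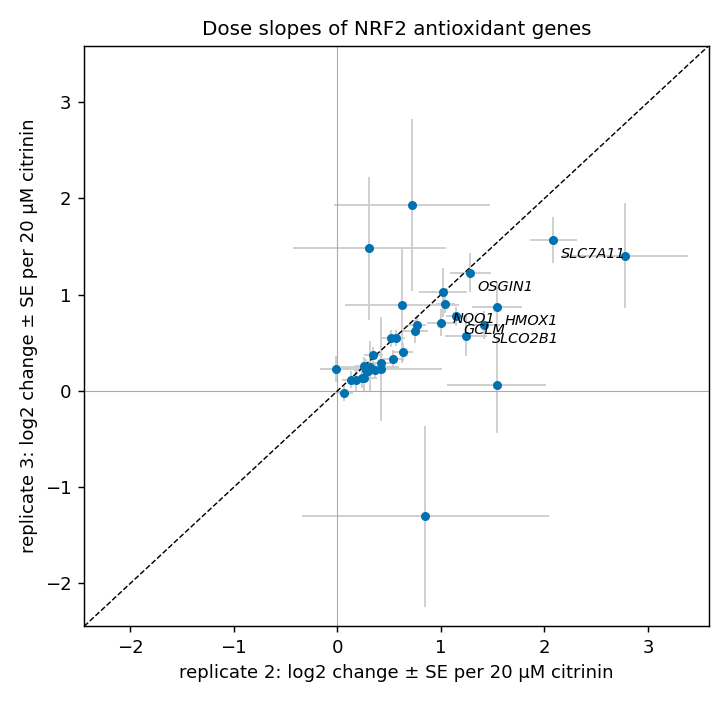
Change per 20 µM citrinin in replicate 2 (horizontal axis) and replicate 3 (vertical axis), in log2 units with bars of 1 SE, for the 35 tested NRF2 antioxidant genes. The dashed line marks equal slopes. Most points lie in the upper right, with medians of 0.57 and 0.40, and SLC7A11 is at 2.09 and 1.57.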

How the data were processed

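Total RNA of SH-SY5Y cells was sequenced in 9 libraries. Per the submitters' processing notes, FastQC, cutadapt, STAR, GRCh38 and edgeR were used. No versions were stated among the sources used here. Raw read counts per gene, from STAR, were deposited by the authors, and the joint count of both strands was used because reads fell about equally on either strand, so overlapping antisense genes cannot be told apart. Reads in several places were not counted, which leaves near-identical paralogs uncertain. Reads outside genes, ambiguous or unmapped were left out of library sizes. Symbols were matched for 61369 of 61487 identifiers, and coordinates are from GENCODE 29, which holds 58312 of them.

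Genes passing filterByExpr in the 6 libraries were fitted with edgeR 4.0.16 (R 4.3.3, TMM, robust quasi-likelihood test), with dose as 3 levels and set as terms and 2 residual degrees of freedom. Adjusted p-values are Benjamini-Hochberg over all tested genes, with a threshold of 0.05. "Higher", "lower", "rose" and "fell" are used of genes that passed. CPM values are TMM-scaled over 9 libraries, fold changes are those of the fit, and each SE is the log2 fold change divided by the square root of its F. Slopes came from a set-by-dose interaction. DESeq2 1.42.0 and limma-voom (limma 3.58.1), other scalings, filters and left-out libraries were alternatives. The fit was also run on counts simulated from the means and scatter of these same libraries. Such a run cannot show whether the replicates were separate cultures.

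The comparison and the 43 gene lists (1170 symbols, 1167 matched, 1024 tested) were chosen with earlier results of these data known, so list counts carry no test of their own. Named genes are the 12 protein-coding genes per direction with the largest change, a mean of at least 5 CPM, no overlap of sets and 1 direction at all doses, up to 4 genes with the smallest p per list, the 4 markers, and for slopes the 3 with the smallest p and 5 NRF2 genes. Other genes were named after their values were seen, and a few genes are not reported here. Promoter letters come from RefSeq (GRCh38.p14), and COL1A1 and COL1A2 are named only.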

Additional observations from a re-analysis of the deposited data

How the results depend on the processing

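For replicate 3 against replicate 2, the count of 2633 genes became 1144 with DESeq2, all of them among the 2633, and 1590 without the dose term. It was 2092 in 1 fit of all 9 libraries, 2578 with limma-voom and 1800 to 2448 when 1 library was left out. Leaving out both libraries of a dose gave 1861 (vehicle), 2449 (10 µM) and 1995 (20 µM). The median log2 fold change of all genes stayed between -0.004 and 0.01 under every setting run. For the citrinin dose slope, replicate 3 against replicate 2, the count of 0 became 1 with no filter on low counts and 0 to 333 when 1 library was left out. The common coefficient of variation of that fit was 0.058, 0.034 without any 1 replicate 2 library and 0.075 without any 1 replicate 3 library. Each set has its own line in that fit, so a set with 1 library left out is fitted exactly. The scatter then comes from the other set alone. In 1 fit of all 9 libraries the counts of small lists moved. Lower genes of the mesenchymal state became 0, of DNA replication 3, of cholesterol synthesis 0 and of histones 0. Higher genes became 0 for catecholamines and granins, blood and endothelial markers, melanocyte and chondrocyte markers and mitochondrially encoded proteins, 2 for p53 targets, 2 for the IGF axis and 3 for the Wnt pathway. The other list counts stayed within 1.5 times under that fit, and all did under DESeq2 size factors in edgeR. Of 161 genes named for the difference between sets none turned direction, and 41 lost the threshold in at least 1 setting, 35 of them without the dose term and 17 with DESeq2. POSTN rested on 4 reads of 20 µM replicate 2, and its fitted log2 fold change of 8.78 became 12.4 without either 20 µM library and 8.20 without either vehicle library, since a library left out takes its partner of the same dose with it. HSPA6 went from 5.33 to 4.25 or 4.26 without vehicle replicate 2 or 3 and to 8.13 or 8.06 without 10 µM replicate 2 or 3, and MT1G from 2.71 to 3.42 without either vehicle library. No paired analysis was possible because the replicate number is itself what is compared, and dose already pairs the sets in the fit. With 3 libraries a set and 3 reads equal to 0.153 to 0.191 CPM, folds of genes near silence are loose.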

Other observations

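Further lists were read beside the comparison, in which 7.28% of all tested genes were higher and 7.47% lower, and several of these counts lie near those shares. The Wnt pathway was divided, with 5 of 32 genes higher and 7 lower in replicate 3 (median 0.04). The higher ones were WNT5A, WNT5B, FZD1, TCF7L2 and LGR4. The secreted Wnt antagonists DKK1 and DKK2 were lower (-0.70 ± 0.06 and -0.74 ± 0.06), and WNT5A, a ligand, was higher (0.46 ± 0.06). The Notch pathway had 6 of 22 higher and 3 lower (JAG2, NRARP and MAML3), with the ligand JAG1 at 1.68-fold (0.74 ± 0.06). In the IGF axis, the ligand IGF2 (1.08 ± 0.36), the binding proteins IGFBP3 (0.44 ± 0.05) and IGFBP7 (0.46 ± 0.10) and the protease PAPPA (0.41 ± 0.05) were higher, and IRS2 was lower (-0.22 ± 0.05). Of 33 genes of the integrated stress response 8 were lower and 3 higher (median -0.11), with the transcription factor ATF4 at -0.24 ± 0.04 and the glutamine transporter SLC38A2 at 0.41 ± 0.04. DDIT3 and SLC3A2 were the others that were higher. Of 27 p53 targets, 5 were higher (CDKN1A, MDM2, FAS, TP53I3 and FDXR) and 4 lower (ZMAT3, AEN, CCNG1 and EDA2R), and MDM2 (0.19 ± 0.04) and ZMAT3 (-0.29 ± 0.05) went opposite ways. Among 23 genes of cholesterol synthesis and uptake, FDFT1, MSMO1 and INSIG1 were higher and STARD4 lower, and 18 did not pass. Immediate early genes had 3 of 27 higher (FOSL1 0.34 ± 0.09, JUN 0.16 ± 0.05 and IER3 0.82 ± 0.15) and 3 lower (JUND, DUSP4 and SPRY4). Of 35 NRF2 antioxidant genes, compared at equal dose, ABCC3 and SQSTM1 were higher and NQO1, TXNRD1, TRIM16L and LUCAT1 lower. Of 18 genes of fatty acid synthesis, FASN, ELOVL1, FADS3 and ACLY were higher and SCD lower. Among the wider marker lists, KRT18, TIE1 and MITF were higher and NGFR and PMEL lower, and of 12 histone genes H2BC11 was lower.

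BCHE, butyrylcholinesterase, had 172, 195 and 151 reads in replicate 1, 0, 2 and 3 in replicate 2 and 9, 17 and 15 in replicate 3. NDUFV2, a subunit of respiratory complex I with low counts, fell by 1.19 on the log2 scale and did not pass with DESeq2.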
